A study of Mus musculus with 5 samples.

Results

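Genes of early lymphoid priming, the low expression of lymphoid genes in progenitors that have not yet settled on a blood lineage, were followed in mouse LSK cells. They are Il7r, Ccr9, Notch1, Ltb, Ly6d, Lsp1, Dntt, Rag1, Rag2 and Satb1. These 10 of 24399 genes in the table were chosen by name, for what they are known to do and with earlier results of these data known. All 10 passed the filter on low counts, which left 14565 genes for testing. LSK cells are the part of the lineage-depleted bone marrow that carries Sca1 and cKit, and they include stem cells and multipotent progenitors. They were sorted from C57BL/6 mice at 12 months of age and gave 3 libraries titled KO and 2 titled WT. The knockout is carried in the germ line, so it is present in all cells of the animal and an effect cannot be assigned to the LSK cells alone. The genotype field gives a heterozygous state for the libraries titled KO and wild type for those titled WT. Title and genotype field thus disagree, the groups follow the titles, and those titled KO are called KO-labelled. Whether each library came from a separate animal is not given in the labels, and p-values measure the spread between these libraries, which may be technical.

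Multipotent progenitors approach the lymphoid fate in steps. Cells with high Flt3 begin to transcribe the recombination enzymes, then gain the interleukin-7 receptor and the capacity to answer Notch signals, and part of them leaves for the thymus under chemokine guidance. In mice, the chromatin organiser Satb1 is known to raise lymphoid competence of stem and progenitor cells, and Ly6d marks lymphoid progenitors already directed to the B lineage. In bulk RNA, fewer cells of a type and less RNA per cell cannot be told apart.

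Total counts, with 1 transcript per gene, were between 36060320 and 39691066 in KO-labelled libraries and were 29964556 and 38674416 in WT libraries. A floor of 3 counts equalled 0.076 to 0.1 CPM (counts scaled to a common library total with the TMM composition factor). Of the LSK markers, Kit stood at 1086.3 to 1144.2 CPM in the KO-labelled group and at 1205.2 and 1227.1 CPM in WT libraries. Ly6a, which encodes Sca1, went the other way, at 90.5 to 104.5 CPM in KO-labelled and 74.9 and 82.0 CPM in WT libraries. Both were without overlap, with log2 fold changes of -0.12 for Kit and 0.31 for Ly6a, and neither passed the test named below. Of the lineage antigens, the T cell antigen Cd3e stayed at or below 3.24 CPM in every library. Itgam, another lineage antigen, stood higher, at 38.7, 54.6 and 85.9 CPM in KO-labelled and 96.4 and 91.7 CPM in WT libraries. KO-labelled library 1 stood apart: its deviation from the mean of all libraries had a Spearman's rho of -0.198 with transcript length, against 0.02 to 0.08 in the other libraries (across 14322 genes within each library, which are not independent replicates). Over all genes, 287 of 14565 passed the test between KO-labelled and WT libraries, which is 1.97%, with 115 higher (0.79%) and 172 lower (1.18%) in KO-labelled libraries. The test was edgeR's quasi-likelihood test with Benjamini-Hochberg adjustment over all tested genes and a threshold of 0.05, and it gives every fold change, standard error (SE) and adjusted p below.

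The bases before the start sites of Ccr9 and Ltb, which rose, and of the neighbouring recombinase genes Rag1 and Rag2, which did not pass the test, are shown first. They are the 250 bases before each start site in RefSeq's GRCm38.p6 table, read 5′ to 3′ on the gene's strand, while the counts were made on mm9. The Ccr9 window is chr9:123766961-123767210 on the plus strand, the Ltb window chr17:35194257-35194506 on the plus strand, the Rag1 window chr2:101649533-101649782 on the minus strand and the Rag2 window chr2:101624462-101624711 on the plus strand. Capitals mark CAGGTG and CAGCTG (E-boxes of the kind bound by E proteins), TGGGAA (the Ikaros-type core), GAGGAA (the ETS-type core) and CCAAT, on either strand.
Ccr9: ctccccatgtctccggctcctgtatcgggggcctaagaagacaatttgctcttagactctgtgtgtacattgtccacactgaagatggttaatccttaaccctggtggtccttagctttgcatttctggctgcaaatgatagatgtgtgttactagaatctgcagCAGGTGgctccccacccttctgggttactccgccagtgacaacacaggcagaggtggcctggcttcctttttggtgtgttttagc
Ltb: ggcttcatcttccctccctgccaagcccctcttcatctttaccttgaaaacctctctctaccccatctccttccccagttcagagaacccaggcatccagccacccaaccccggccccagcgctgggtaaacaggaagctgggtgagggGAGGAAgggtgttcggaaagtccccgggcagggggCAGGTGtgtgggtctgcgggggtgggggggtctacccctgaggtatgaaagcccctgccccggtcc
Rag1: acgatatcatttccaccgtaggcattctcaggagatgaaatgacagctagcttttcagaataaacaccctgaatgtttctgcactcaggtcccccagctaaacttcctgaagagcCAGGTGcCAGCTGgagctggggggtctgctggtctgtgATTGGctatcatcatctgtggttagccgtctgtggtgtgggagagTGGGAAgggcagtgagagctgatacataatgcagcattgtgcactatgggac
Rag2: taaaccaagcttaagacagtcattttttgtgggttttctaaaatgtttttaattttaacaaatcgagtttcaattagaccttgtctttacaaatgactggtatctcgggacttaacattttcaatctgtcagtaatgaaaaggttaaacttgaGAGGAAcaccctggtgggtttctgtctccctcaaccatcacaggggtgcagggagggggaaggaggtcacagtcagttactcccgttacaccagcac
The E-box CAGGTG began 85 bases before the start of Ccr9, 66 bases before that of Ltb and 135 bases before that of Rag1. It was found in 17.2% of all 32851 windows of this length in the table. Rag1 also held CAGCTG (13.0% of windows) 128 bases before its start, TGGGAA (21.6%) at 52 bases and CCAAT (33.8%), read on the other strand, at 97 bases. Ltb held GAGGAA (23.3%) at 101 bases and Rag2 held it at 97 bases, and no matches overlapped each other in the 4 windows. TATAAA (12.4% of windows) and GGGCGG (32.7%) were also searched and had no match in these 4. Windows were found for 8 of the 10 genes, all but Lsp1 and Ly6d. The Notch1 window held 5 matches to GGGCGG and 66.0% G and C, the Dntt window held no match to any of the letters searched and 41.6% G and C, and the median over all windows was 52.4%.

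Of the 10 priming genes, 4 rose in KO-labelled libraries, Ly6d, Ccr9, Ltb and Lsp1, and 0 fell. The share of all tested genes that rose was 0.79%. As the members were chosen with such results known, their share is a description. Of the 10, 5 had all KO-labelled libraries above both WT libraries, the 4 above and Rag2, against 16.5% of all tested genes. Wholly below WT lay 0 of the 10, against 16.3% of all tested genes. None of the 10 fell at an unadjusted p under 0.05 either, and DESeq2 and limma with sample weights each called 5 higher and 0 lower. A fit with the replicate number as a block called 1 higher and 0 lower. Over all genes and in either direction, DESeq2 called 575, limma 624 and the fit with the block 160. The median log2 fold change was 0.44 over the 10 genes and 0.001 over all tested genes. A positive log2 fold change was found for 6 of the 10, against 50.1% of all tested genes, and 5 had an unadjusted p under 0.05, against 13.8%. The count of members that rose was 5 without KO-labelled library 1, 2 without KO-labelled library 2, 1 without KO-labelled library 3 and 0 without either WT library. Over all genes and in either direction, 675 passed without KO-labelled library 1, 263 without library 2 and 135 without library 3. Without either WT library a lone WT library is left and few genes of any kind passed, so the count there says little about the members. With all 5 libraries, Il7r, Notch1, Dntt, Rag1, Rag2 and Satb1 did not pass.

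**Figure D1:**
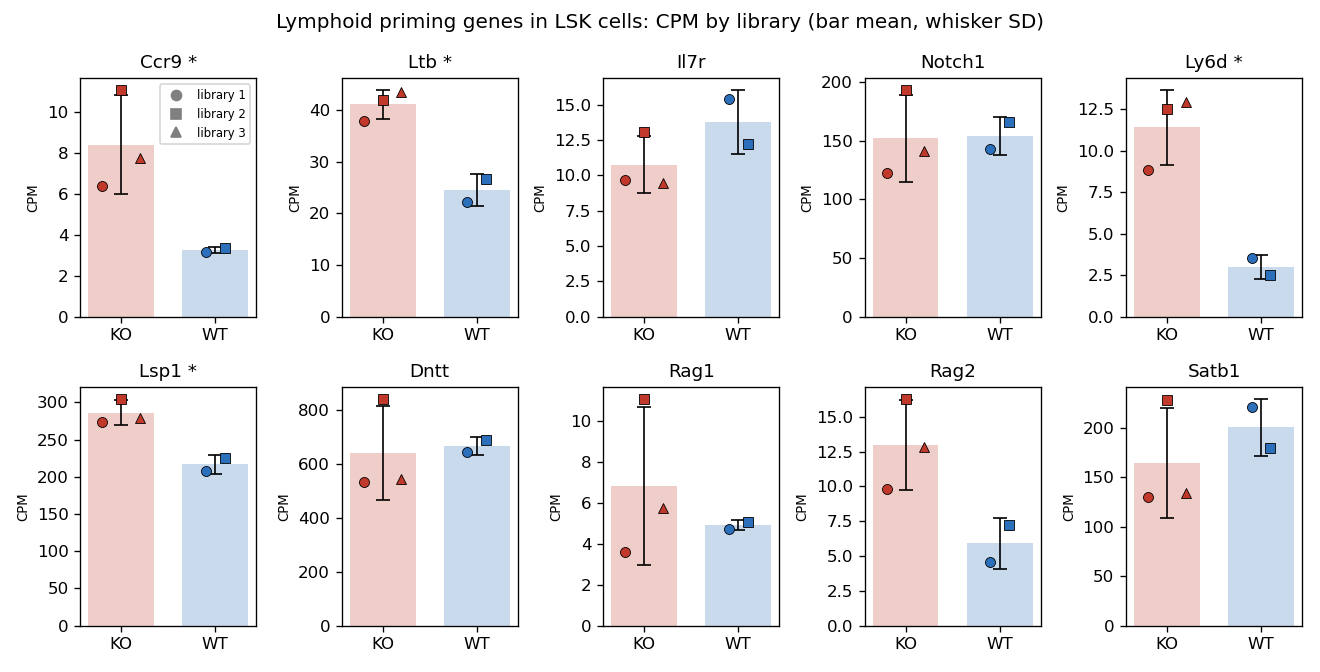
CPM (vertical axis, from 0) of the 10 lymphoid priming genes in KO-labelled (left, 3 libraries) and WT (right, 2 libraries) LSK cells. Points are libraries, bars are means, whiskers are SD and an asterisk marks an adjusted p under 0.05; KO-labelled library 2 is the highest of the 5 libraries for 7 genes.

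The receptors that receive the first lymphoid signals come first. Il7r encodes the alpha chain of the interleukin-7 receptor, the growth factor receptor of early B and T progenitors, and stood at 9.69, 13.1 and 9.47 CPM in KO-labelled libraries 1 to 3 and at 15.4 and 12.2 CPM in WT libraries 1 and 2. The groups overlapped, since KO-labelled library 2 lay above WT library 2. The mean was 10.8 ± 2.04 CPM in KO-labelled libraries (SD, n = 3) and 13.8 ± 2.25 CPM in WT libraries (SD, n = 2, as for all means below), and the log2 fold change of -0.36 ± 0.22 (SE) did not pass (adjusted p = 0.519). Il7r is also a target of some lineage-depletion antibody mixes, and whether it was in the mix used here is not given in the sources used here.

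Notch1 is the receptor through which thymic ligands drive T lineage commitment. It had 122.1, 193.6 and 140.9 CPM in KO-labelled libraries and 142.9 and 165.9 CPM in WT libraries. The WT values lay inside the KO-labelled range, with KO-labelled libraries 1 and 3 below both and KO-labelled library 2 above both. The log2 fold change of -0.02 ± 0.17 did not pass (adjusted p = 0.978), and it turned above 0 under 5 of 13 alternatives, from -0.23 to 0.11 over all of them.

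Ccr9 encodes the receptor for the chemokine Ccl25, which draws progenitors into the thymus, and is also carried by plasmacytoid dendritic cells. It had 6.40, 11.1 and 7.75 CPM in KO-labelled libraries and 3.17 and 3.35 CPM in WT libraries, from 231, 433 and 306 counts in the KO-labelled and 95 and 131 counts in the WT libraries. All KO-labelled libraries lay above both WT libraries, and KO-labelled library 2 was the highest. Ccr9 rose 2.58-fold (log2 fold change 1.37 ± 0.31, adjusted p = 0.0433), with a mean of 8.41 ± 2.41 in KO-labelled against 3.26 ± 0.129 CPM in WT libraries. The call was lost without KO-labelled library 2 (1.11, adjusted p = 0.138) or 3 (1.43, adjusted p = 0.113) and without WT library 1 (1.33, adjusted p = 0.448) or 2 (1.41, adjusted p = 0.335), and over all 13 alternatives the adjusted p ran from 0.0037 to 0.448.

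Ltb encodes lymphotoxin beta, the membrane-bound cytokine subunit of the TNF family that organises lymphoid tissue. It had 38.0, 42.0 and 43.5 CPM in KO-labelled libraries and 22.3 and 26.7 CPM in WT libraries. The groups did not overlap, and the gap between them was wider than the spread within either. Ltb rose 1.68-fold (log2 fold change 0.75 ± 0.14, adjusted p = 0.0149; mean 41.2 ± 2.83 in KO-labelled against 24.5 ± 3.11 CPM in WT libraries). It lost its call without KO-labelled library 3 (0.71, adjusted p = 0.0879), WT library 1 (0.63, adjusted p = 0.304) or WT library 2 (0.88, adjusted p = 0.136), within a range of 0.000136 to 0.304 over 13 alternatives. For its neighbour in gene order, Lst1, the log2 fold change was 0.27 ± 0.18 (adjusted p = 0.576), and Tnf, the neighbour on the other side and a cytokine of the same family, showed a difference of 1.25 ± 0.77 on the log2 scale (adjusted p = 0.528), at 1.05 to 5.78 CPM in KO-labelled libraries and 0.467 and 2.33 CPM in WT libraries.

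Ly6d, a small lipid-anchored surface protein, changed most of the 10. It had 8.80, 12.5 and 12.9 CPM in KO-labelled libraries and 3.50 and 2.48 CPM in WT libraries, from 318, 487 and 509 counts in the KO-labelled and 105 and 97 counts in the WT libraries. The lowest KO-labelled library stood above the higher WT library by more than the range of either group. Ly6d rose 3.82-fold (log2 fold change 1.93 ± 0.29, adjusted p = 0.00443; mean 11.4 ± 2.25 in KO-labelled against 2.99 ± 0.722 CPM in WT libraries). It kept its call in 11 of 13 alternatives and lost it without WT library 1 (2.20, adjusted p = 0.151) or WT library 2 (1.70, adjusted p = 0.137), where the lone WT sample is assumed to vary like the others. The adjusted p over all 13 ran from 1.65e-07 to 0.151.

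Lsp1 encodes an actin-binding protein of leukocytes. Its level was 273.7, 305.0 and 279.3 CPM in KO-labelled libraries and 207.7 and 225.9 CPM in WT libraries. The groups did not overlap, and values within a group lay close together. Lsp1 rose 1.32-fold (log2 fold change 0.40 ± 0.09, adjusted p = 0.0348; mean 286.0 ± 16.7 in KO-labelled against 216.8 ± 12.9 CPM in WT libraries), the smallest change of the 4. It lost its call without KO-labelled library 2 (0.35, adjusted p = 0.0944) or 3 (0.42, adjusted p = 0.125) and without WT library 1 (0.35, adjusted p = 0.484) or 2 (0.46, adjusted p = 0.219), with a range of 0.00112 to 0.484 over 13 alternatives. The table holds 6 transcript rows of Lsp1, and the lowest had 99.69% of the counts of the highest, so they do not measure the isoforms apart.

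**Figure D2:**
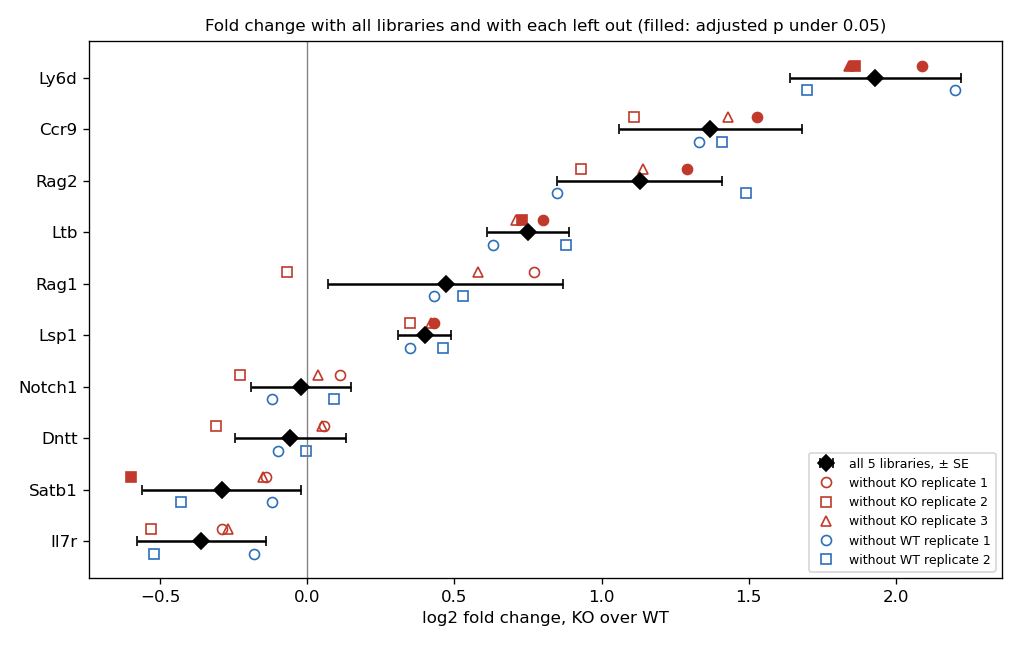
Log2 fold change of KO-labelled over WT (horizontal axis) for the 10 genes: black diamonds with SE bars use all 5 libraries, red symbols leave out a KO-labelled library and blue symbols a WT library, filled where the adjusted p is under 0.05. Without WT library 1 or 2 none of the 10 passes, while Satb1 passes as lower without KO-labelled library 2.

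The recombination enzymes assemble and diversify antigen receptor genes. Dntt encodes terminal deoxynucleotidyl transferase, which adds bases at the joins, and was the most abundant of the 10, at 533.1, 842.2 and 545.8 CPM in KO-labelled libraries and 643.4 and 689.4 CPM in WT libraries. Both WT values lay between those of KO-labelled libraries 2 and 3. The log2 fold change of -0.06 ± 0.19 did not pass (adjusted p = 0.939), and it turned above 0 without KO-labelled library 1 (0.06) or 3 (0.05).

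Rag1 and Rag2 encode the subunits of the recombinase that cuts antigen receptor loci, and lie next to each other. Rag1 had 3.60, 11.1 and 5.77 CPM in KO-labelled libraries and 4.74 and 5.09 CPM in WT libraries, so that the groups overlapped and KO-labelled library 2 stood above the rest. Its log2 fold change of 0.47 ± 0.40 did not pass (adjusted p = 0.677) and was -0.07 without KO-labelled library 2. Rag2 had 9.80, 16.3 and 12.8 CPM in KO-labelled libraries and 4.60 and 7.21 CPM in WT libraries, without overlap. Its log2 fold change of 1.13 ± 0.28, or 2.18-fold, missed the threshold (adjusted p = 0.0674), and it passed with DESeq2 (adjusted p = 0.0103), limma and sample weights (adjusted p = 0.0144), no count filter (adjusted p = 0.00934) and without KO-labelled library 1 (1.29, adjusted p = 0.00546), with an adjusted p of up to 0.583 elsewhere. Rag2 had 2.72, 1.47 and 2.21 counts per count of Rag1 in KO-labelled libraries and 0.972 and 1.42 in WT libraries, without overlap, although KO-labelled library 2 lay just above WT library 2. The gene Iftap overlaps Rag2 in the RefSeq table and had 52.2, 47.7 and 46.0 CPM in KO-labelled libraries 1 to 3, above the 44.5 and 41.9 CPM of WT libraries 1 and 2 (log2 fold change 0.17 ± 0.12, adjusted p = 0.571). As the strand setting of the counting is not given, reads of the pair cannot be told apart, and Rag2 is uncertain for that reason.

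Satb1 organises chromatin loops at lymphoid loci. It had 130.0, 228.5 and 134.5 CPM in KO-labelled libraries and 220.9 and 179.9 CPM in WT libraries. KO-labelled libraries 1 and 3 lay below both WT libraries and KO-labelled library 2 lay above them. The log2 fold change was -0.29 ± 0.27 (adjusted p = 0.732). Without KO-labelled library 2 it was -0.60 ± 0.11 and passed (adjusted p = 0.0104), within a range of 0.0104 to 0.934 over the 13 alternatives. The 4 transcript rows of Satb1 carried nearly the same reads, the lowest holding 98.15% of the counts of the highest.

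Of the 6 genes that did not pass, all but Rag2 differed more, as a ratio, between the highest and the lowest KO-labelled library than between the group means. KO-labelled library 2 was the highest of all 5 libraries for 7 of the 10 genes, against 17.0% of all tested genes, and KO-labelled library 1 was the lowest of the KO-labelled ones for 9 of 10, against 40.2%. The highest KO-labelled library exceeded the lowest 3.07-fold for Rag1, 1.76-fold for Satb1, 1.73-fold for Ccr9, 1.58-fold for Dntt and 1.59-fold for Notch1, but 1.14-fold for Ltb and 1.11-fold for Lsp1. The median of this ratio was 1.58 for the 10 genes and 1.24 for all tested genes, and between the WT libraries it was 1.18 for the 10 and 1.13 for all. Flt3, the receptor that marks lymphoid-primed progenitors, was likewise lowest in library 1 and highest in library 2 of the KO-labelled group, with 402.5, 643.6 and 455.7 CPM in KO-labelled libraries, beside 529.5 and 481.3 CPM in WT libraries. Of the 33 tested genes of the early lymphoid list, Flt3 included, 13 were highest in KO-labelled library 2 (39.4%). A high share was not confined to that list. Among the other lists described below, it ran from 0 of 11 neutrophil and monocyte markers to 7 of 17 V(D)J recombination partners (41.2%). It was 37.5% for plasmacytoid dendritic cell markers and 36.4% for T cell markers, but 10.5% for chemokine receptors and homing genes.

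Levels per kilobase of transcript, in CPM per kb with GENCODE lengths, allow the genes to be ranked. In KO-labelled libraries Dntt averaged 300.6 ± 82.1, Lsp1 165.6 ± 9.67, Ltb 35.5 ± 2.44, Satb1 27.4 ± 9.28, Notch1 16.0 ± 3.91 and Ly6d 15.3 ± 3.02 CPM per kb. The low end of these libraries held Rag2 at 3.78 ± 0.947, Il7r at 3.04 ± 0.575, Ccr9 at 2.91 ± 0.835 and Rag1 at 1.03 ± 0.580 CPM per kb. In WT libraries Dntt averaged 312.8 ± 15.3, Lsp1 125.6 ± 7.46, Satb1 33.4 ± 4.85, Ltb 21.1 ± 2.68, Notch1 16.3 ± 1.71 and Ly6d 4.02 ± 0.970 CPM per kb, and Il7r 3.90 ± 0.635, Rag2 1.73 ± 0.539, Ccr9 1.13 ± 0.0447 and Rag1 0.744 ± 0.038 CPM per kb. Within the KO-labelled libraries Ltb and Satb1, Notch1 and Ly6d, and Rag2, Il7r and Ccr9 lay within an SD of each other, so that their order is not settled. The same held for Ly6d and Il7r within the WT libraries. Ccr9 has 2 transcript rows with the same counts, of 2888 and 5197 bases. The shorter was used, so the place of Ccr9 in both groups depends on that choice.

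The wider pathways of the 10 genes held few calls. Of 20 tested genes of interleukin-7 receptor signalling, Ccnd2, a cyclin of the G1 phase, rose 1.52-fold (582.6 ± 29.5 in KO-labelled against 383.8 ± 24.5 CPM in WT libraries, adjusted p = 0.00305). The survival kinase Pim2 fell 2.02-fold (30.9 ± 3.42 in KO-labelled against 62.3 ± 4.97 CPM in WT libraries, adjusted p = 0.0019). The list median was -0.12, 1 was higher and 5 lower at an unadjusted p under 0.05, DESeq2 called 1 higher and 3 lower, and limma 1 higher and 2 lower. Both edgeR calls were lost without WT library 1 or without WT library 2. Of 17 partners of V(D)J recombination and end joining, Nbn, a subunit of the complex that senses double-strand breaks, rose 1.43-fold (67.5 ± 1.28 in KO-labelled against 47.1 ± 8.07 CPM in WT libraries, adjusted p = 0.0478) and 0 fell. That call was lost with summed transcripts and without KO-labelled library 2 or 3 or either WT library. Trp53bp1 and Atm, with the highest mean CPM of that list (not corrected for length), had log2 fold changes of 0.15 ± 0.09 and -0.08 ± 0.09, which did not pass. Of 14 tested genes of the Ly6 family and the actin partners, Ly6c2, a surface protein of monocytes and other cells, rose 1.45-fold (96.3 ± 13.7 in KO-labelled against 66.3 ± 1.71 CPM in WT libraries, adjusted p = 0.0385), lost with the length offset, with summed transcripts and without KO-labelled library 3 or either WT library. The members with the highest mean CPM, Ly6e and the actin bundler Lcp1, had log2 fold changes of 0.01 ± 0.07 and 0.17 ± 0.09 and did not pass.

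By edgeR, 0 genes passed in the other lists. Of 33 early lymphoid genes, 4 were higher and 2 lower at an unadjusted p under 0.05, DESeq2 called 0 higher and 1 lower, and limma with sample weights 1 higher and 1 lower. The median was 0.003, Flt3 had a log2 fold change of -0.01 ± 0.18 and the zinc finger factor Ikzf1, a regulator of lymphoid development, one of 0.10 ± 0.09. Of 36 genes of the Notch pathway, 2 were higher and 7 lower at an unadjusted p under 0.05, DESeq2 called 1 higher and 1 lower and limma 0 higher and 1 lower, and the median was -0.10. Its members with the highest mean CPM, the protease Adam10 (361.7 ± 6.18 in KO-labelled against 405.3 ± 26.3 CPM in WT libraries) and the receptor Notch2 (309.0 ± 29.9 in KO-labelled against 332.4 ± 23.4 CPM in WT libraries), did not pass. Of 17 genes of lymphotoxin and TNF receptor signalling, 1 was higher and 3 lower unadjusted, DESeq2 called 0 higher and 1 lower and limma 1 higher and 1 lower, with a median of -0.05. The receptors Tnfrsf1a and Tnfrsf1b differed by -0.03 ± 0.08 and -0.08 ± 0.10 on the log2 scale. Of 19 chemokine receptors and homing genes, 2 were higher and 1 lower unadjusted and DESeq2 and limma called 0, with a median of -0.16, and the integrins Itgb1 and Itga4 did not pass. Of 13 chromatin partners of Satb1, 1 was higher and 0 lower unadjusted, DESeq2 called 0 and limma 1 higher, with a median of 0.04, and the remodeller Chd4 and the cohesin subunit Rad21 did not pass.

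**Figure D3:**
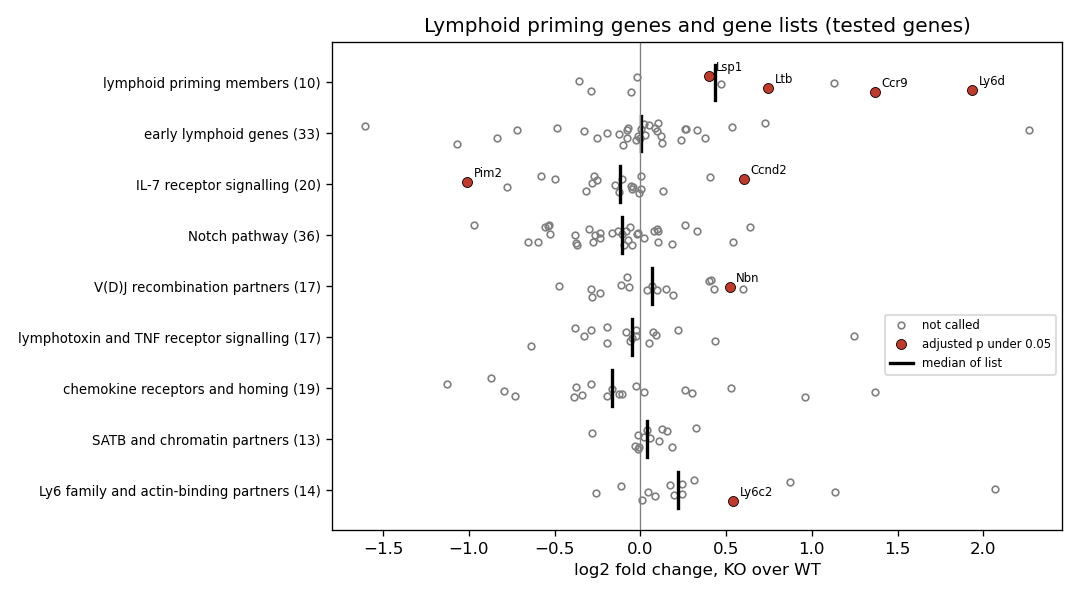
Log2 fold change of KO-labelled over WT (horizontal axis) for each tested gene of the lymphoid priming set and 8 related lists, with the number tested in parentheses. Red points passed at an adjusted p under 0.05, black bars are list medians, and Il2ra, which had 0 counts in both WT libraries, is not drawn.

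Markers of other cell types that could be in the sort are given beside the genes that rose. Summed CPM of 10 mature B cell markers was 60.5 to 67.8 in KO-labelled and 52.2 to 54.9 in WT libraries, without overlap, and 0 of 9 tested passed by edgeR, DESeq2 or limma (1 higher at an unadjusted p under 0.05). Pax5, the factor that fixes B cell identity, had at most 0.166 CPM in KO-labelled libraries and at most 0.667 CPM in WT libraries. The sum of 10 plasmacytoid dendritic cell markers overlapped, at 456.2 to 549.0 CPM in KO-labelled and 486.4 to 519.2 CPM in WT libraries. Tcf4 went the other way, at 152.1, 197.0 and 174.0 CPM in KO-labelled and 230.8 and 208.1 CPM in WT libraries. Its log2 fold change of -0.33 ± 0.11 did not pass (adjusted p = 0.171). Without Tcf4 and Runx2, both abundant here and left out after the values were seen, the other 8 did not overlap. They summed to 188.0 to 223.3 CPM in KO-labelled and 143.1 to 150.0 CPM in WT libraries, most of it Ly6c2, Bst2 and Irf7. By test, 2 of 8 rose, Ly6c2 and the interferon regulator Irf7 (1.60-fold, adjusted p = 0.0423), of which 1 passed without KO-labelled library 2 or with the length offset, and 0 with summed transcripts, without KO-labelled library 3 or without either WT library. Siglech, a defining marker of these cells, had 5.79, 4.02 and 2.76 CPM in KO-labelled libraries, against 1.37 and 1.36 CPM in WT libraries (adjusted p = 0.101). Of the 8 tested plasmacytoid markers, 4 were higher and 1 lower at an unadjusted p under 0.05. DESeq2 called 3 higher and limma 2, with 0 lower by either. For 9 conventional dendritic cell markers the sums were 639.2 to 849.2 CPM in KO-labelled and 616.7 to 661.6 CPM in WT libraries, an overlap set by Flt3, which LSK cells also carry. Without Flt3, left out after the values were seen, the other 8 summed to 205.6 to 262.3 CPM in KO-labelled and 132.0 to 135.4 CPM in WT libraries, without overlap. By test, 1 of 9 passed, H2-Ab1, an MHC class II chain (1.86-fold higher, adjusted p = 0.00214), lost without either WT library. DESeq2 called 2 higher and limma 1, with 0 lower by either, and 6 of 9 had a positive log2 fold change. Xcr1 (2.28-fold, adjusted p = 0.0574 by edgeR) and Clec9a (1.57-fold, adjusted p = 0.26) lay higher in KO-labelled libraries without overlap and did not pass. The sums of 11 T cell markers overlapped (98.7 to 129.2 CPM in KO-labelled and 105.3 to 112.1 CPM in WT) with 0 calls by edgeR, DESeq2 or limma and 0 at an unadjusted p under 0.05. Those of 10 NK and innate lymphoid markers were lower in KO-labelled libraries (197.2 to 239.2 CPM, against 268.8 to 275.8 CPM in WT libraries). By test, 1 of 10 passed, Klrb1c (2.03-fold lower, adjusted p = 0.00826), lost without either WT library. Nkg7, Il18rap and Klrb1c made up most of each sum. Nkg7 was nearly level (log2 fold change 0.01 ± 0.09), and Il18rap was lower without passing (-0.37 ± 0.13, adjusted p = 0.217). Ncr1, Gzma, Prf1, Eomes and Tbx21 reached at most 1.61 CPM in any library. A positive log2 fold change was found for 5 of these 10 markers.

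Myeloid and erythroid markers separated the groups as well. The summed level of neutrophil and monocyte markers was 3067.8 to 3717.6 CPM in KO-labelled and 4250.8 to 4662.6 CPM in WT libraries, with 3 of 11 called lower by edgeR, 8 by DESeq2 and 6 by limma and a median log2 fold change of -0.67. That of megakaryocyte markers, most of it Vwf and Itga2b, was 349.6 to 559.5 CPM in KO-labelled and 618.8 to 710.9 CPM in WT libraries. Of these 7 markers, 2 were called lower by each of the 3 tools, and 2 were higher and 3 lower at an unadjusted p under 0.05. The 2 higher were Pf4 and Ppbp, with log2 fold changes of 0.79 ± 0.26 and 1.46 ± 0.57 by edgeR (adjusted p = 0.196 and 0.277). Erythroid markers summed to 1143.7 to 1511.1 CPM in KO-labelled and 835.7 to 952.3 CPM in WT libraries, with 5 of 10 called higher by edgeR, 6 by DESeq2 and 4 by limma. Lineage antigens summed to 400.4 to 473.6 CPM in KO-labelled and 522.3 to 568.1 CPM in WT libraries, most of it Ptprc, the leukocyte antigen CD45, which LSK cells carry too. Without Ptprc and the member Il7r, left out after the values were seen, the sums were 53.9 to 99.3 CPM in KO-labelled and 105.0 to 112.5 CPM in WT libraries. Most of each of these sums was Itgam. Of the lineage antigens, 0 of 8 were called by edgeR (1 lower at an unadjusted p under 0.05, 1 lower by DESeq2 and 0 by limma), and the sums of 9 LSK markers overlapped, at 4923.6 to 5141.9 CPM in KO-labelled and 5076.9 to 5166.5 CPM in WT libraries. Without WT library 1 none of these marker calls passed, and without WT library 2 the 1 that passed was erythroid. The part of any of these cells in the rise of Ly6d, Ccr9, Ltb and Lsp1 was not tested. With an offset for transcript length, added after the data were seen because of KO-labelled library 1, the 4 genes passed with log2 fold changes of 1.90, 1.35, 0.71 and 0.37.

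**Figure D4:**
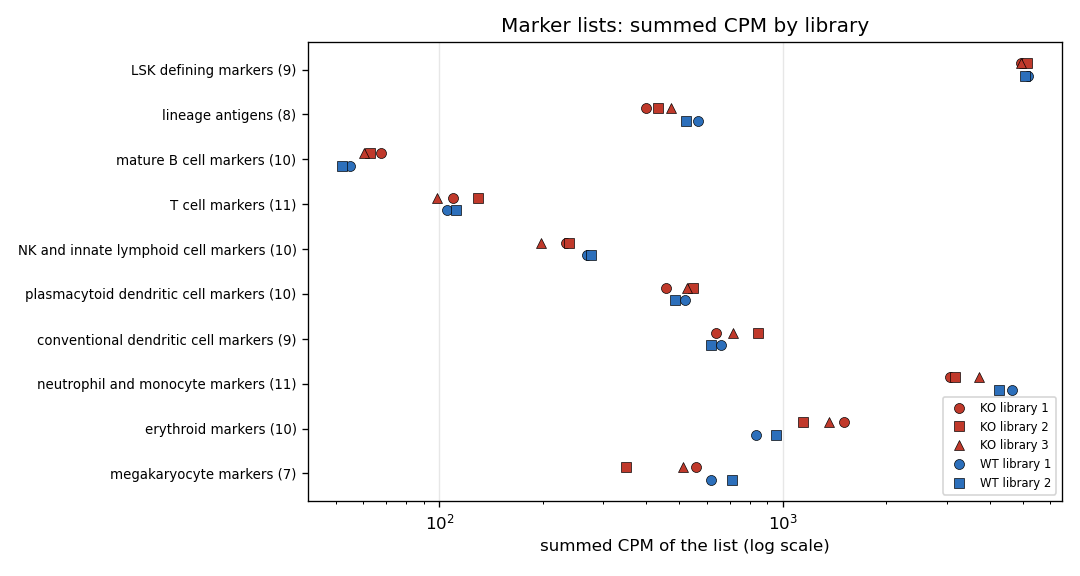
Summed CPM (horizontal axis, log scale) of each marker list in the 3 KO-labelled (red, upper of each pair) and 2 WT (blue, lower) libraries, with the number of genes in parentheses. Sums of mature B cell and erythroid markers lie higher in KO-labelled libraries, those of neutrophil and monocyte, megakaryocyte, NK and lineage antigen lists lie lower, and the other 4 overlap. The conventional dendritic sum includes Flt3, and the plasmacytoid sum includes Tcf4 and Runx2. Without these genes, left out after the values were seen, both sums lie higher in KO-labelled libraries (205.6 to 262.3 against 132.0 to 135.4 CPM in WT, and 188.0 to 223.3 against 143.1 to 150.0 CPM in WT). Tcf4 itself lay lower in all KO-labelled libraries than in either WT library.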

How the data were processed

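RNA of sorted LSK cells was made into stranded mRNA libraries, per the labels' protocols. The deposited table holds raw read counts of 33862 RefSeq transcript rows. STAR, Subread 1.4.5-p1, featureCounts and the build mm9 are named in the submitters' processing notes, while neither strand use nor the handling of shared reads is stated there. Symbols came from RefSeq (33485 rows) and GENCODE (188); 189 rows kept their accession and held 0.362% to 0.459% of counts. The row with the most counts was kept per gene. Low counts were removed by filterByExpr, libraries were scaled by TMM, and genes were tested, two-sided, with the robust quasi-likelihood test of edgeR 4.0.16 (R 4.3.3). DESeq2 1.42.0 and limma 3.58.1 were alternatives, beside other scalings, no filter, summed transcripts, a replicate block, a length offset and each library left out. The test was checked on simulated counts. Motifs were searched with Python 3.11.15.

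The members and lists were chosen with earlier results of these data known. All 10 members are named. In each list, members past the threshold are named, or the 2 with the highest mean CPM where fewer than 2 passed. Further marker genes and Tnf, Lst1 and Iftap were chosen after their values were seen. A floor of 3 counts covers counting error only. The targeted gene and some other genes are not reported here.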

Additional observations from a re-analysis of the deposited data

How the results depend on the processing

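All 4 genes that rose, Ly6d, Ccr9, Ltb and Lsp1, had a positive log2 fold change under all 13 alternatives, and Rag2 did too, while Il7r and Satb1 were negative under all 13. The number of members higher was 4, and 1 with the replicate block, 0 to 5 with a library left out (2 without KO-labelled library 2, 1 without KO-labelled library 3, 0 without either WT library). The number lower was 0, and 0 to 1 with a library left out. Over all genes, 287 passed, and 575 with DESeq2, 624 with limma and sample weights, 455 with no count filter, 160 with the replicate block, and 6 to 675 with a library left out. Fold changes of 3 members that did not pass changed sign: Dntt (-0.06) was 0.0091 with the replicate block and -0.31 to 0.058 with a library left out, Rag1 (0.47) was -0.069 to 0.77, and Notch1 (-0.02) was 0.014 with limma and sample weights, 0.055 with the length offset and -0.23 to 0.11. With the replicate block, Ccr9 (1.38), Ltb (0.71) and Lsp1 (0.42) missed the threshold and Ly6d (1.83) passed. Of the lists, the V(D)J, Ly6 and plasmacytoid calls higher (Nbn, Ly6c2, Irf7) fell to 0 with the block, and the calls lower in interleukin-7 receptor signalling numbered 3, against 1. The labels do not say that equal numbers pair the libraries, and only 2 numbers are shared. Deviations from the group means correlated at 0.043 for number 1 and 0.017 for number 2. The deviations of the 2 WT libraries mirror each other (correlation of -1), so these are not separate checks. They cannot settle whether libraries of equal number were handled together. Causes were not tested. With 2 WT libraries few calls outlast the loss of either, and depth limits Ly6d and Ccr9, at 95 to 131 counts in WT libraries.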
